A study of Bos taurus with 28 samples.

Results

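The proteasome genes on the array were taken as the genes whose symbol starts with PSMA, PSMB, PSMC, PSMD, PSME, PSMF or PSMG and a digit. A probe set, which is a group of short probes for 1 transcript, was used only where the array's annotation gives it exactly 1 symbol. By this rule 40 genes were measured with 46 probe sets, out of 9155 genes with such a probe set. Each gene is represented by the probe set with the highest mean over the 28 arrays. There were 13 core genes (PSMA1, PSMA3 to PSMA7 and PSMB1 to PSMB7), 3 immunoproteasome genes (PSMB8 to PSMB10), 16 regulatory genes (6 PSMC and 10 PSMD) and 3 activator genes (PSME1, PSME2 and PSME4). The other 5 were PSMF1, PSMG1, PSMG2, PSMG3 and PSME3IP1, and the last of these matched by name alone and is no subunit. PSMA2, PSMD3, PSMD7, PSMD8, PSMD12, PSME3 and PSMG4 were not analysed here.

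The proteasome is the protease that degrades proteins tagged with ubiquitin. Its barrel-shaped core is built from stacked rings of alpha subunits (PSMA), which gate the entrance, and beta subunits (PSMB), of which PSMB5, PSMB6 and PSMB7 cut the substrate. Under interferon these catalytic subunits are replaced in new particles by PSMB8, PSMB9 and PSMB10, and the resulting immunoproteasome makes peptides for presentation on class I molecules. The regulatory cap holds a ring of ATPases (PSMC), which unfold the substrate, and non-ATPase subunits (PSMD), which bind and remove ubiquitin. PSME proteins form other caps that open the core without ATP, and PSMG proteins are chaperones that assemble the core. In the liver this system degrades short-lived enzymes and misfolded proteins.

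The biopsies came from ovariectomized, non-lactating Holstein cows, and all groups share the loss of the ovaries. CO cows received no hormone, E2T cows an ear implant that releases estradiol, P4T cows vaginal devices that deliver progesterone, and E2P4T cows both, each for 14 days. The labels of P4T call the exposure intradermal, whereas the treatment protocol gives the vaginal device. There were 7 arrays in each group, and the cows passed through the treatments in turn in a Latin square whose cow and period are not in the labels. The ages of the cows are not given in the sources used here. A biopsy holds all cells of the liver. Levels below are log2 of the array signal and differences are log2 fold changes against the named group. Values given for the 3 treatments together follow the order E2T, P4T, E2P4T, and levels of different genes are not compared with each other because their probes differ.

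Some arrays stood apart before any comparison. The mean of 20 hepatocyte markers lay between 14.78 and 15.78 on the other 27 arrays but at 9.94 on E2P4T 5, where 18 of the 20 markers had their lowest value of all arrays. On the same array the mean of 13 kidney markers was 11.45 against 5.56 to 8.07 elsewhere, and 12 of the 13 were above every other array. The hybridisation spikes, bacterial control transcripts added at a fixed amount, had a mean of 15.07 to 18.44 on 5 arrays (E2P4T 5, P4T 4, CO 3, E2T 3 and E2P4T 2) and 13.18 to 14.60 on the other 23. E2P4T 5 and P4T 4 carried the highest spikes. Counts and differences of the proteasome genes that moved clearly when these 2 arrays were left out are also given without them.

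No proteasome gene passed the test in any treatment. With Benjamini-Hochberg adjustment over 18775 tested probe sets, 0 of the 40 genes had an adjusted p under 0.05 in E2T, P4T or E2P4T against CO, where the share of all probe sets was 0% in each. The lowest adjusted p values among the 40 were 0.873, 1 and 0.933 in these treatments. At an unadjusted p under 0.05, 0 genes were called in E2T, where 1.45% of all probe sets were called higher and 3.98% lower. In P4T the only such gene was PSMC1, with lower signal, where the share of all probe sets was 1.84% lower and 0.943% higher. In E2P4T it was again only PSMC1, against 2.74% lower and 2.17% higher. The F test over the treatments gave 0 of 40 at an unadjusted p under 0.05, against 2.14% of all probe sets, and 0% after adjustment. All 40 genes had overlapping ranges between CO and each treatment. For 38 of the 40 the distance between the highest and the lowest group mean was smaller than 1 pooled SD of the arrays within a group. The shares of all probe sets for this overlap and this distance are not given here, so neither is read as a trait of these genes. In whole biopsies fewer cells of a type and less RNA per cell cannot be told apart.

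Most of the genes lay above CO in E2T, though this depended on how the arrays were scaled. In E2T 29 of the 40 genes lay above CO, with a median difference of 0.13, where 40.2% of all tested probe sets lay above CO and their median was -0.10. In P4T 18 lay above CO, with a median of -0.02 against -0.03 for all probe sets, of which 46.3% lay above. In E2P4T 21 lay above CO, with a median of 0.02 against -0.02 and a share of 48.3%. E2T had the highest mean of the 4 groups for 26 of the 40 genes, P4T for 3 and E2P4T for 2. This ranking holds for all 28 arrays, and the matching share of all probe sets is not given here. The direct comparisons of E2T with P4T and with E2P4T, given below, changed clearly without P4T 4 and E2P4T 5. The 3 treatments share the CO arrays, so that a high or low CO array moves all 3 differences at once. When P4T 4 and E2P4T 5 were left out, 29, 25 and 26 genes lay above CO in the 3 treatments, with medians of 0.13, 0.11 and 0.07. Of all probe sets 40.2%, 40.9% and 41.5% then lay above CO, with medians of -0.10, -0.09 and -0.09. With the spike level as a covariate 19, 12 and 20 of the 40 lay above CO, and after median centring 38, 28 and 26 did.

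**Figure D1:**
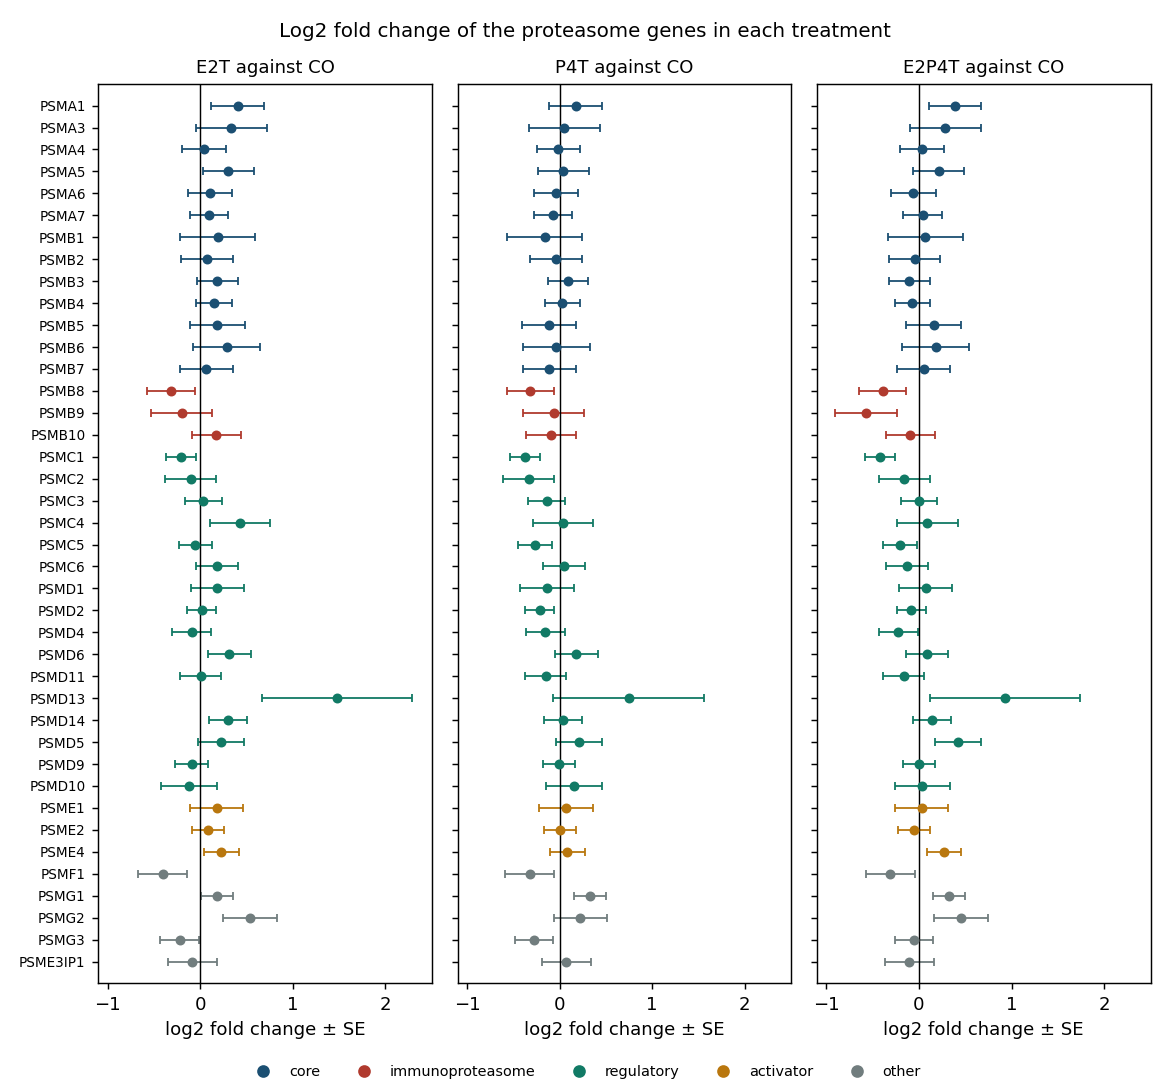
Log2 fold change of each of the 40 genes in E2T, P4T and E2P4T against CO (points) with its standard error from limma (bars), coloured by class. The 13 core genes lie to the right of 0 in E2T (6 of 13 with the spike level as a covariate), PSMD13 has the widest bars, and no gene passed the adjusted test.

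The 13 core genes all had the same sign in E2T, whereas the 16 regulatory genes shared no sign in any treatment. The classes of 3 genes shared a sign as well, the activator genes in E2T and the immunoproteasome genes in P4T and E2P4T. In E2T all 13 had a positive difference, between 0.04 (PSMA4) and 0.40 (PSMA1), and their median was 0.18. None of the 13 passed the test, and all 13 of the 95% intervals held 0, with bounds that reached from -0.63 for PSMB1 to 1.12 for PSMA3. In P4T 5 of the 13 lay above CO (median -0.04), and in E2P4T 9 did (median 0.05). The mean of the 13 genes on an array was 12.91 ± 0.40 in CO, against 13.10 ± 0.38 in E2T, 12.90 ± 0.57 in P4T and 13.002 ± 0.39 with both hormones (SD, n = 7 each). The differences between these means were therefore within 1 SD of the arrays.

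**Figure D2:**
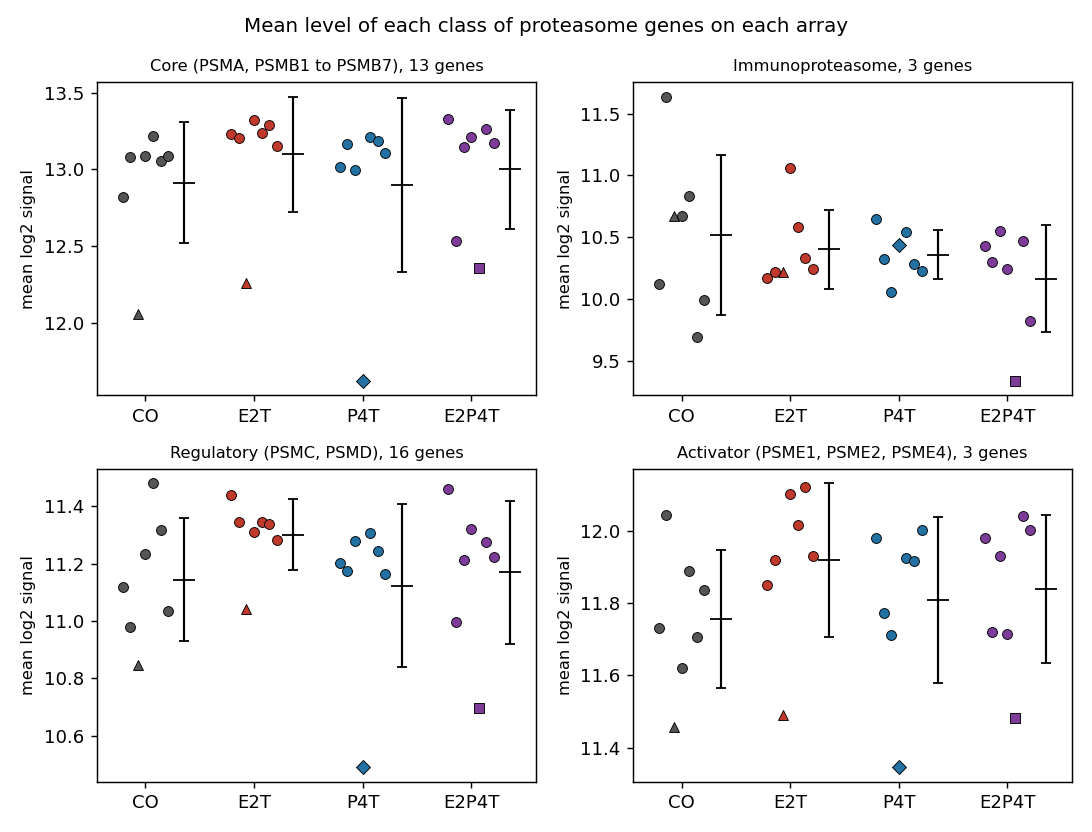
Mean log2 signal of the genes of each class on every array (points, ordered by array number within a group), with the group mean and SD (bars). Triangles are CO 3 and E2T 3, the diamond is P4T 4 and the square is E2P4T 5, and these 4 arrays lie at the low end of the core means in their groups.

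This spread among core genes lay between arrays more than between groups. The core mean was 11.62 on P4T 4, 12.05 on CO 3, 12.26 on E2T 3, 12.36 on E2P4T 5 and 12.53 on E2P4T 2, and between 12.82 and 13.33 on the other 23 arrays. These 5 arrays, the lowest for the core, were also the 5 with the highest spikes. Within CO, E2T, P4T and E2P4T the spike mean and the core mean had Pearson r of -0.972, -0.853, -0.972 and -0.836 (n = 7 each). Their exact permutation p, adjusted over 16 relations of spikes with class means, were 0.0452, 0.147, 0.088 and 0.0488. Spearman rho were -0.786, -0.143, -0.607 and -0.5, with adjusted exact permutation p of 0.256 to 0.895. Without the 2 arrays farthest from the median spike level the Pearson r were -0.33, 0.37, -0.752 and -0.801. With P4T 4 and E2P4T 5 removed the core mean was 13.11 ± 0.09 in P4T (SD, n = 6) and 13.11 ± 0.29 in E2P4T (SD, n = 6). The core genes above CO then numbered 12 of 13 in P4T (median 0.18) and 13 of 13 in E2P4T (median 0.15), which were 5 and 9 with all arrays. Leaving out CO 3 alone reduced the E2T median to 0.05 with 8 of 13 above CO, the P4T median to -0.14 with 2 of 13 and the E2P4T median to -0.07 with 4 of 13. With the spike level as a covariate, 6 of 13 core genes lay above CO in E2T (median -0.01) and 2 of 13 in P4T (median -0.08). Median centring of the arrays moved the other way, since it moved the median of all probe sets in E2T from -0.10 to 0.17, and gave core medians of 0.45 in E2T and 0.08 in P4T with 13 and 12 genes above CO. The sign of the core median thus changed under at least 1 of these settings in each treatment.

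**Figure D3:**
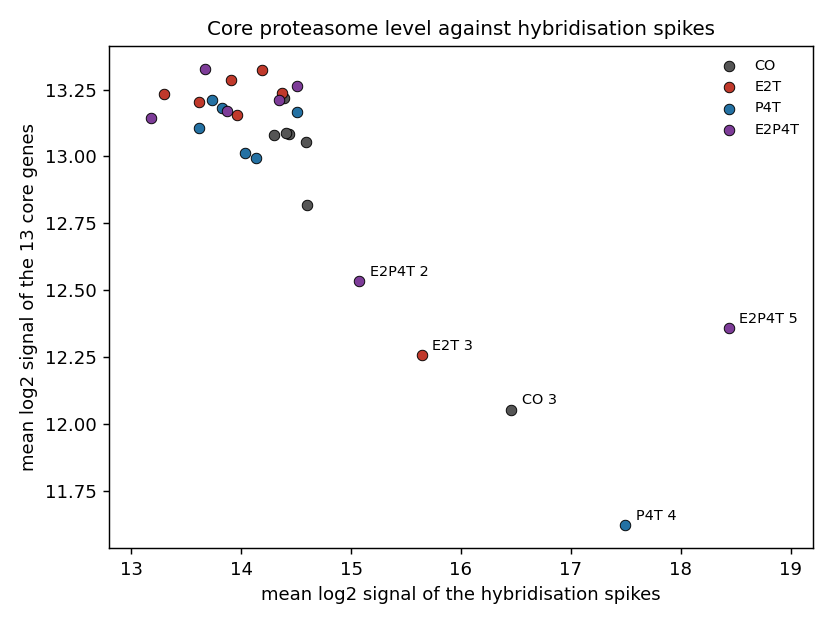
Mean log2 signal of the 13 core genes (vertical axis) against the mean log2 signal of the hybridisation spikes (horizontal axis), 1 point per array, coloured by group. The 5 labelled arrays have spike means of 15.07 to 18.44 and core means of 11.62 to 12.53, and the other 23 arrays form a cluster at core means of 12.82 to 13.33.

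Among the alpha subunits PSMA1 had the largest differences. PSMA1 ranged from 10.42 to 12.31 in CO (median 11.39), from 10.70 to 12.26 in E2T (median 12.03), from 10.45 to 12.12 in P4T (median 11.71) and from 11.03 to 12.35 in E2P4T (median 12.08). The lowest arrays of CO, E2T and P4T were CO 3, E2T 3 and P4T 4, and the groups overlapped over most of their range. The differences were 0.40 ± 0.28, 0.17 ± 0.28 and 0.39 ± 0.28 (SE), with adjusted p of 0.875, 1 and 0.933. When P4T 4 and E2P4T 5 were left out they were 0.40, 0.37 and 0.52, the last with an unadjusted p of 0.045 and an adjusted p of 0.521. PSMA4 had the smallest difference of the class in E2T, with differences of 0.04 ± 0.23, -0.01 ± 0.23 and 0.03 ± 0.23. PSMA4 values ran from 11.53 to 12.37 in CO and from 11.52 to 12.63 in E2T.

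The constitutive catalytic subunits differed little between the groups beside their spread, and shared a low value on P4T 4. PSMB5, which holds the chymotrypsin-like site, ranged from 12.27 to 13.40 in CO (median 13.10), from 12.42 to 13.74 in E2T (median 13.28), from 10.97 to 13.499 in P4T (median 13.28) and from 12.47 to 13.68 in E2P4T (median 13.16). PSMB6, with the caspase-like site, had medians of 12.53, 12.90, 12.85 and 12.85 in CO, E2T, P4T and E2P4T and a lowest value of 9.96 on P4T 4. PSMB7, with the trypsin-like site, had medians of 13.63, 13.60, 13.58 and 13.57 and was 11.59 on P4T 4. All 3 genes thus had their lowest value of P4T on P4T 4, where the next P4T arrays were at 12.96, 12.45 and 13.44. In E2T the differences against CO were 0.18 ± 0.30 for PSMB5, 0.29 ± 0.36 for PSMB6 and 0.07 ± 0.29 for PSMB7. In P4T they were -0.12, -0.04 and -0.11 with all arrays and 0.21, 0.37 and 0.18 without P4T 4 and E2P4T 5. In E2P4T they were 0.16, 0.18 and 0.05 with all arrays and 0.28, 0.31 and 0.16 without them.

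Of the core genes PSMB1 had the lowest difference in P4T and PSMB3 in E2P4T, and neither of these beta subunits holds a catalytic site. PSMB1 ranged from 11.40 to 13.89 in CO (median 13.20), from 11.75 to 13.66 in E2T (median 13.25), from 10.20 to 13.48 in P4T (median 12.93) and from 11.89 to 13.35 in E2P4T (median 12.98). Its difference in P4T was -0.16 ± 0.40 with all arrays and 0.25 without P4T 4 and E2P4T 5. PSMB3 ranged from 11.49 to 12.76 in CO and from 11.16 to 12.44 in E2P4T, and its difference in E2P4T was -0.10 ± 0.22, or 0.03 without the 2 arrays.

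The immunoproteasome genes had lower means than CO in most comparisons, again within the spread. PSMB8 differed from CO by -0.32 ± 0.25, -0.32 ± 0.25 and -0.39 ± 0.25, with adjusted p of 0.877, 1 and 0.933. PSMB9 differed by -0.20 ± 0.33, -0.06 ± 0.33 and -0.57 ± 0.33, and PSMB10 by 0.17 ± 0.27, -0.09 ± 0.27 and -0.09 ± 0.27. The class medians were -0.20, -0.09 and -0.39, with 1, 0 and 0 of the 3 genes above CO, and the first and second turned to 0.07 and 0.02 under median centring. The intervals held 0 for all 3 genes in each treatment, and that of PSMB9 in E2P4T ran from -1.25 to 0.11.

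Single arrays carried much of these differences. PSMB8 ranged from 10.67 to 12.70 in CO (median 11.14), from 10.53 to 11.91 in E2T (median 10.94), from 10.61 to 11.35 in P4T (median 10.97) and from 10.10 to 11.63 in E2P4T (median 11.002). Its highest value, 12.70, was on CO 2, where the next CO array was at 11.21. PSMB9 ranged from 9.53 to 11.36 in CO (median 10.47), from 9.77 to 10.60 in E2T (median 10.23), from 10.21 to 10.58 in P4T (median 10.35) and from 7.46 to 10.60 in E2P4T (median 10.20). The value of 7.46 was on E2P4T 5 and the next E2P4T array was at 9.80. PSMB10 ranged from 8.89 to 10.85 in CO (median 9.92), from 9.50 to 10.68 in E2T (median 9.99), from 9.36 to 10.01 in P4T (median 9.85) and from 9.29 to 10.46 in E2P4T (median 9.72). CO 2 was the highest of the 28 arrays for all 3 genes, and CO 6 was the lowest CO array for all 3.

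**Figure D4:**
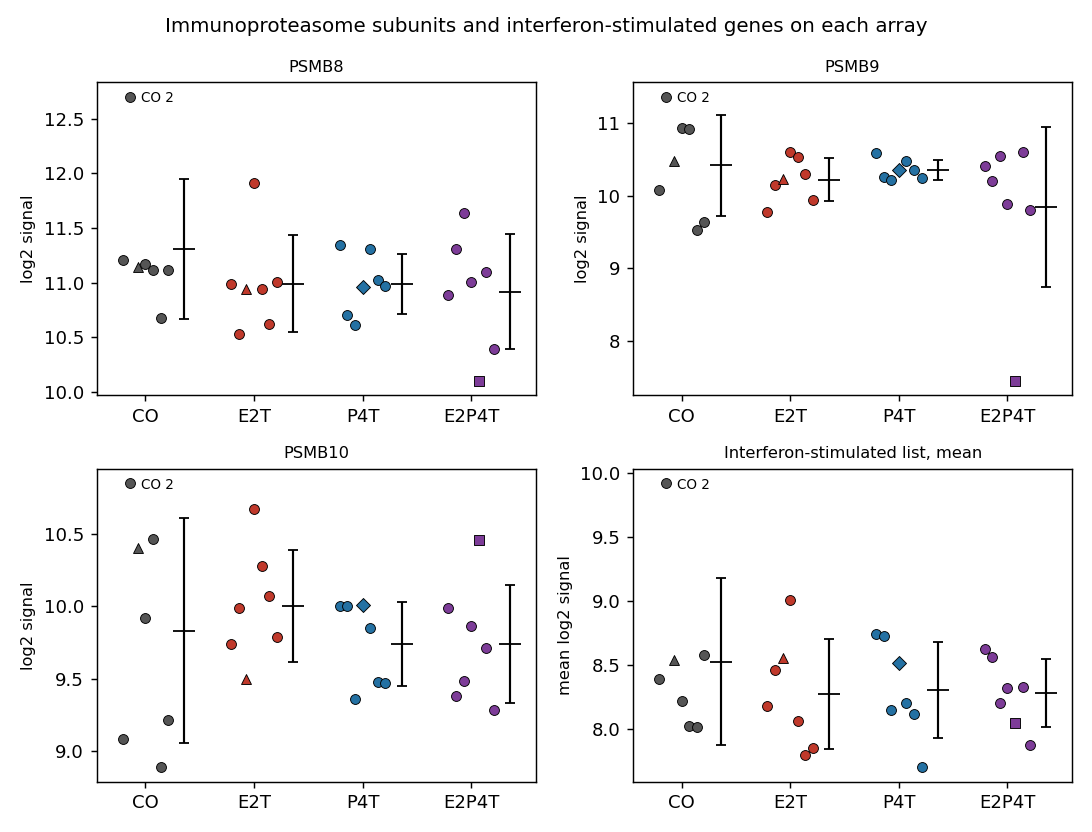
Log2 signal of PSMB8, PSMB9 and PSMB10 and the mean log2 signal of the interferon-stimulated list on every array (points, ordered by array number within a group), with the group mean and SD (bars). CO 2 is the highest point in all 4 panels, and the square, E2P4T 5, is the lowest point for PSMB8 and PSMB9.

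Without CO 2, P4T 4 and E2P4T 5, a choice made after seeing these values, the class medians were -0.04, 0.03 and -0.02. With only P4T 4 and E2P4T 5 left out they were -0.20, -0.14 and -0.21, and the difference of PSMB9 in E2P4T went from -0.57 to -0.18. The interferon-stimulated list, 22 measured genes, had its highest mean on CO 2, at 9.92, and the next highest array was E2T 4 at 9.003. On CO 2, 13 of these 22 genes had their highest value of all arrays. The leukocyte list of 19 genes was highest on CO 2 as well, at 10.13, and ranged from 9.35 to 10.13 in CO, 9.31 to 9.88 in E2T, 9.46 to 10.07 in P4T and 8.14 to 10.04 in E2P4T. The part of leukocytes in the PSMB8 to PSMB10 signals was not tested.

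Interferon genes themselves did not pass the test either. Of 18 tested genes of the list, 15, 10 and 13 lay below CO in E2T, P4T and E2P4T, with medians of -0.26, -0.29 and -0.31, and 0 had an adjusted p under 0.05. Of all tested probe sets 40.2%, 46.3% and 48.3% lay above CO in these treatments. IRF9, a transcription factor of the interferon response, was 0.71 below CO in E2T and 0.85 below in E2P4T, with unadjusted p of 0.0134 and 0.00369 and adjusted p of 0.873 and 0.933. IRF7 (-0.72 in E2T, unadjusted p = 0.0411) and XAF1 (-0.79 in P4T, unadjusted p = 0.0243) were the others below CO at an unadjusted p under 0.05. That is 2, 1 and 1 of 18 lower, where 3.98%, 1.84% and 2.74% of all probe sets were called lower. IRF9, IRF7 and XAF1 each had their highest value of all arrays on CO 2. XAF1 was at 12.17 there and at most 10.53 elsewhere. RSAD2, an antiviral enzyme, was 0.79 above CO in E2P4T with an unadjusted p of 0.0476. It was the only gene of the list called higher there at that level, against 2.17% of all probe sets. On E2P4T 5 RSAD2 was at 9.37, above every array except CO 2 (9.53). IRF9 was at 7.52 on E2P4T 5 and at 8.05 or more elsewhere. The E2P4T differences of IRF9 and RSAD2 without P4T 4 and E2P4T 5 are not given here. The antigen presentation list (9 genes) had 0 genes at an unadjusted p under 0.05 in any treatment, and its medians were 0.02, -0.19 and -0.21. TAP1, which carries the peptides into the endoplasmic reticulum and lies between PSMB8 and PSMB9 in the RefSeq gene order of cattle (assembly ARS-UCD2.0), differed from CO by -0.11 ± 0.28, -0.30 ± 0.28 and -0.43 ± 0.28. On E2P4T 5 TAP1 was at 7.91, below every other array (lowest 8.35), and its difference without that array is not given here.

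In the Latin square each group's arrays come from different cows, so that the genes could be correlated over the 7 arrays of each group. Of 12 relations between pairs of the 3 genes, the strongest was PSMB8 with PSMB9 in P4T, with Pearson r = 0.919 (exact permutation p = 0.00337, adjusted p = 0.0404) and Spearman rho = 0.893 (exact permutation p = 0.0123, adjusted p = 0.143). Its r was 0.867 without the 2 arrays farthest from the median. The other 11 had exact permutation p of 0.0127 to 0.373 for r, two-sided, and adjusted p of 0.0548 to 0.373. For PSMB8 with PSMB9, r was 0.704 in CO, 0.423 in E2T and 0.790 in E2P4T, and it was 0.000909, -0.408 and 0.535 there without the 2 farthest arrays. In E2P4T PSMB10 had negative r with both (-0.527 with PSMB8 and -0.702 with PSMB9), and E2P4T 5 was the lowest array of that group for PSMB8 and PSMB9 but the highest for PSMB10. These r were 0.249 and -0.166 without the 2 farthest arrays. For PSMB9 with PSMB10, r was 0.903 in CO and 0.747 in E2T, and 0.783 and 0.580 without the 2 farthest arrays. The mean of the interferon list had r of 0.551 to 0.710 with the mean of the 3 genes in the 4 groups, with exact permutation p of 0.0857 to 0.201 and adjusted p of 0.201 in each. Without the 2 arrays farthest from the median this r was -0.665 in CO and -0.330 in E2T, so that the relation rests on those arrays there.

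The balance of immunoproteasome to constitutive catalytic subunits was compared between arrays as the mean of PSMB8 to PSMB10 minus the mean of PSMB5 to PSMB7. It was -2.45 ± 0.77 in CO, compared with -2.74 ± 0.47 in E2T, -2.52 ± 0.96 in P4T and -2.93 ± 0.38 under both hormones (SD, n = 7 each), and only its change between arrays has a meaning because the probes differ. The group means differed by less than the SD of the CO arrays. The highest values were -0.40 on P4T 4, where PSMB5, PSMB6 and PSMB7 were low, and -1.27 on CO 3, and the next P4T array was at -2.47. With P4T 4 and E2P4T 5 removed the balance was -2.87 ± 0.22 in P4T and -2.92 ± 0.41 in E2P4T (SD, n = 6 each).

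The regulatory genes held the only member that was called without adjustment. PSMC1, an ATPase of the base, ranged from 11.57 to 12.57 in CO (median 12.03), from 11.65 to 12.07 in E2T (median 11.79), from 11.46 to 11.88 in P4T (median 11.69) and from 11.23 to 12.10 in E2P4T (median 11.61). CO held the highest values, and the lower part of its range overlapped all treatments. The difference was -0.21 ± 0.16 in E2T (unadjusted p = 0.205), and it was -0.37 ± 0.16 in P4T (unadjusted p = 0.0257, adjusted p = 1) and -0.42 ± 0.16 in E2P4T (unadjusted p = 0.0128, adjusted p = 0.933). When P4T 4 and E2P4T 5 were left out these differences were -0.34 and -0.36, with unadjusted p of 0.0303 and 0.0234. Over 46 alternatives the difference in E2P4T stayed between -0.66 and -0.24 and that in P4T between -0.45 and -0.26. In P4T PSMC1 kept an unadjusted p under 0.05 in 41 of the 46, and lost it under median centring, without CO 4, without CO 5, over arrays 1 to 4 alone and over arrays 5 to 7 alone. In E2P4T it kept one in 44 of the 46, and lost it under median centring and over arrays 1 to 4 alone. In E2T it lay between -0.30 and 0.06, the positive value under median centring.

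The other ATPases had no shared direction. PSMC4 lay 0.43 ± 0.33 above CO in E2T and PSMC2 0.33 ± 0.28 below CO in P4T, both named after their values were seen. PSMC2 was at 11.72 on P4T 4 and at 12.99 or more on the other P4T arrays, and its difference in P4T was -0.09 without P4T 4 and E2P4T 5. PSMC5 differed by -0.05 ± 0.18, -0.26 ± 0.18 and -0.20 ± 0.18. PSMC6 ranged from 11.40 to 12.47 in CO, 11.81 to 12.17 in E2T, 11.57 to 12.17 in P4T and 10.15 to 12.24 in E2P4T. The lowest of these, 10.15, was on E2P4T 5, and the difference in E2P4T turned from -0.13 to 0.13 without that array and P4T 4. The mean of the 6 ATPase genes was 11.87 ± 0.16 in CO and 11.92 ± 0.10, 11.70 ± 0.29 and 11.73 ± 0.27 in the 3 treatments (SD, n = 7 each).

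Of the non-ATPase subunits PSMD13, a subunit of the lid, had the largest differences and the largest spread of all 40 genes. It ranged from 3.47 to 9.74 in CO (median 6.68), from 6.44 to 8.83 in E2T (median 8.31), from 4.10 to 8.62 in P4T (median 7.43) and from 4.00 to 9.22 in E2P4T (median 8.02). On 20 of the 28 arrays its signal was under 350, the level that a probe set had to reach on at least 1 array to be tested. The differences were 1.47 ± 0.81, 0.75 ± 0.81 and 0.93 ± 0.81, with unadjusted p of 0.0786, 0.365 and 0.259. They were 1.47, 1.28 and 1.52 without P4T 4 and E2P4T 5, with unadjusted p of 0.0305, 0.0677 and 0.0324 and adjusted p of 0.453, 0.606 and 0.515. Over arrays numbered 1 to 4 alone they were 2.71, 1.46 and 2.43, and over arrays 5 to 7 alone -0.17, -0.21 and -1.06. The direction therefore rested on the arrays numbered 1 to 4, in which CO 2 was at 3.47 and CO 3 at 4.15.

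PSMD6, another lid subunit, ranged from 10.01 to 10.67 in CO (median 10.39), from 9.73 to 11.04 in E2T (median 10.76), from 10.30 to 10.82 in P4T (median 10.53) and from 8.94 to 10.98 in E2P4T (median 10.66). The low values of 9.73 and 8.94 were on E2T 3 and E2P4T 5. Its differences were 0.31 ± 0.23, 0.18 ± 0.23 and 0.09 ± 0.23. Without P4T 4 and E2P4T 5 they were 0.31, 0.22 and 0.34, with unadjusted p of 0.0603, 0.193 and 0.0509. PSMD14, the enzyme that removes ubiquitin chains, lay 0.30 ± 0.20 above CO in E2T and PSMD2, a receptor for ubiquitin-like domains, 0.22 ± 0.16 below CO in P4T, both named after their values were seen. Over all 16 regulatory genes 10, 7 and 8 lay above CO, with medians of 0.03, -0.07 and 0.00. Under median centring all 16 lay above CO in E2T, and with the spike level as a covariate 7 did. PSMD5, PSMD9 and PSMD10, chaperones that assemble the base, had a mean of 9.92 ± 0.12 in CO and 9.92 ± 0.28, 10.04 ± 0.23 and 10.07 ± 0.41 in the 3 treatments (SD, n = 7 each). Their highest mean, 10.87, was on E2P4T 5.

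Where a gene had several probe sets, they could differ more than the treatments. PSMD6 had a difference of 0.31 ± 0.23 in E2T at 1 probe set and of -0.42 ± 0.30 at the other, and 0.18 ± 0.23 against -0.25 ± 0.30 in P4T. PSMC6 differed in E2P4T by -0.13 ± 0.23 and 0.25 ± 0.24, and PSMC5 in E2T by -0.05 ± 0.18 and -0.45 ± 0.32. PSMB2, PSMC2 and PSMD4 were the other genes with more than 1 probe set. The PSMC2 probe sets had opposite signs in E2T (-0.10 and 0.19) and in E2P4T (-0.16 and 0.04), and those of PSMB2 in E2P4T (-0.05 and 0.02). The PSMD4 probe sets had the same sign in all 3 treatments, with -0.15 and -0.41 in P4T.

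The activators lay close to CO. PSME1 and PSME2, the alpha and beta subunits of the cap that interferon gamma induces, are neighbours with EMC9 between them in the RefSeq gene order of cattle. PSME1 ranged from 11.28 to 12.96 in CO (median 12.23), from 11.20 to 12.89 in E2T (median 12.65), from 11.18 to 13.01 in P4T (median 12.42) and from 11.72 to 12.74 in E2P4T (median 12.60). PSME2 ranged from 11.73 to 12.52 in CO, 11.77 to 12.48 in E2T, 11.53 to 12.48 in P4T and 11.57 to 12.21 in E2P4T. Both genes overlapped between all groups over most of their range. The differences were 0.18 ± 0.29, 0.07 ± 0.29 and 0.03 ± 0.29 for PSME1 and 0.09 ± 0.17, 0.00 ± 0.17 and -0.05 ± 0.17 for PSME2. Those of PSME1 were 0.18, 0.26 and 0.12 without P4T 4 and E2P4T 5. PSME4, a large single-chain activator, lay 0.23 ± 0.19, 0.08 ± 0.19 and 0.27 ± 0.19 above CO, and its E2P4T values (11.12 to 11.52) overlapped those of CO (10.44 to 11.73). The class medians were 0.18, 0.07 and 0.03, and that of P4T turned to -0.02 with the spike level as a covariate.

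Of the remaining genes, PSMF1, which encodes an inhibitor of the core, had negative differences in all treatments (-0.40 ± 0.26, -0.32 ± 0.26 and -0.31 ± 0.26). It was named after its values were seen, ranged from 11.02 to 13.64 in CO, and had its highest value on CO 2. The core chaperones PSMG1, PSMG2 and PSMG3 had a mean of 10.44 ± 0.20 in CO and 10.61 ± 0.26, 10.53 ± 0.25 and 10.68 ± 0.31 in the 3 treatments (SD, n = 7 each). PSMG2, also named after its values were seen, had the largest difference of these, 0.54 ± 0.29 in E2T, and its unadjusted p there was 0.0373 without P4T 4 and E2P4T 5. PSME3IP1, the match by name, differed by -0.09 ± 0.27, 0.07 ± 0.27 and -0.10 ± 0.27.

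Over the 26 arrays other than P4T 4 and E2P4T 5, the genes at an unadjusted p under 0.05 were PSMD13 and PSMG2 (higher) in E2T, PSMC1 (lower) in P4T, and PSMA1 and PSMD13 (higher) with PSMC1 (lower) in E2P4T, all named above. That is 2, 0 and 2 of 40 higher, where 3.03%, 2.39% and 2.99% of all probe sets were called higher. It is 0, 1 and 1 of 40 lower, where 7.2%, 5.81% and 6.51% were called lower. The adjusted test again called 0 of the 40 in each treatment. With CO 3 and E2T 3 left out as well, 6, 1 and 2 of the 40 were higher at an unadjusted p under 0.05, against 4.07%, 2.1% and 2.71% of all probe sets, and 0, 1 and 1 were lower, against 9.35%, 4.53% and 5.21%. The lower gene was PSMC1, and PSMG1, named after its values were seen, was among the higher genes in each treatment. With all 28 arrays and a weight for each array, 7, 3 and 5 were higher, against 6.73%, 4.2% and 5.71% of all probe sets, and 3, 3 and 2 lower, against 10.2%, 5.56% and 7.43%. The adjusted test called 0 of the 40 under both settings as well.

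The treatments were also compared with each other, and no proteasome gene passed. E2T lay above P4T for 34 of the 40 genes (median 0.15, all probe sets -0.05), and 22 did without P4T 4 and E2P4T 5 (median 0.03). E2P4T lay above E2T for 7 (median -0.10), or 20 without the 2 arrays, and above P4T for 23 (median 0.05), or 21. At an unadjusted p under 0.05 there were 0 genes in each of these comparisons, against 1.44%, 2.04% and 1.95% of all probe sets. The interaction, which asks whether the effect of both hormones differs from the sum of the 2 single effects, had 0 genes at an unadjusted p under 0.05 against 2.99% of all probe sets. After adjustment the share of probe sets called was 0% in all 4. The largest interaction estimates were -1.29 ± 1.15 for PSMD13 and 0.45 ± 0.29 for PSMG3.

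No other gene of the ubiquitin and proteasome pathway list passed the test. Of 20 measured genes (of 30 listed), 15, 12 and 14 lay above CO, with medians of 0.07, 0.02 and 0.12, where 40.2%, 46.3% and 48.3% of all tested probe sets lay above CO. UBQLN1, a shuttle that brings ubiquitylated proteins to the proteasome, was the only one at an unadjusted p under 0.05, at 0.54 ± 0.25 above CO in E2T (unadjusted p = 0.0361, adjusted p = 0.873). Leaving out P4T 4 and E2P4T 5 put it 0.54, 0.55 and 0.57 above CO, with adjusted p of 0.393, 0.594 and 0.461. POMP, the chaperone that matures the core, lay 0.29 ± 0.23, 0.17 ± 0.23 and 0.36 ± 0.23 above CO.

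The genes were also set against each other by their deviations from the group means, as a description over arrays that share cows, libraries and scaling. The median pairwise r over the 28 arrays was 0.639 among the 13 core genes (78 pairs) and 0.887 among PSMB5, PSMB6 and PSMB7, where 1000 evenly spaced tested probe sets had a median of 0.0511. It was 0.137 among the ATPases, 0.256 among the non-ATPases and 0.0857 between core and immunoproteasome genes. With the core genes PSME1 and PSME2 had medians of 0.711 and 0.543, and PSME4 had one of -0.297. Among the immunoproteasome genes it was 0.356. When P4T 4 and E2P4T 5 were left out, the core value was 0.584, that of PSMB5 to PSMB7 was 0.704 and that of the immunoproteasome genes 0.636, while the ATPases had -0.0575 and the non-ATPases -0.0461. PSME1, PSME2 and PSME4 then had 0.631, 0.337 and -0.413 with the core. When CO 3 and E2T 3 were left out as well, a choice made after seeing the data, the value was 0.243 in the core, 0.304 among PSMB5 to PSMB7 and 0.641 among the immunoproteasome genes. The ATPases and the non-ATPases then had 0.0342 and -0.159, and PSME1, PSME2 and PSME4 had 0.299, 0.19 and -0.37 with the core.

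**Figure D5:**
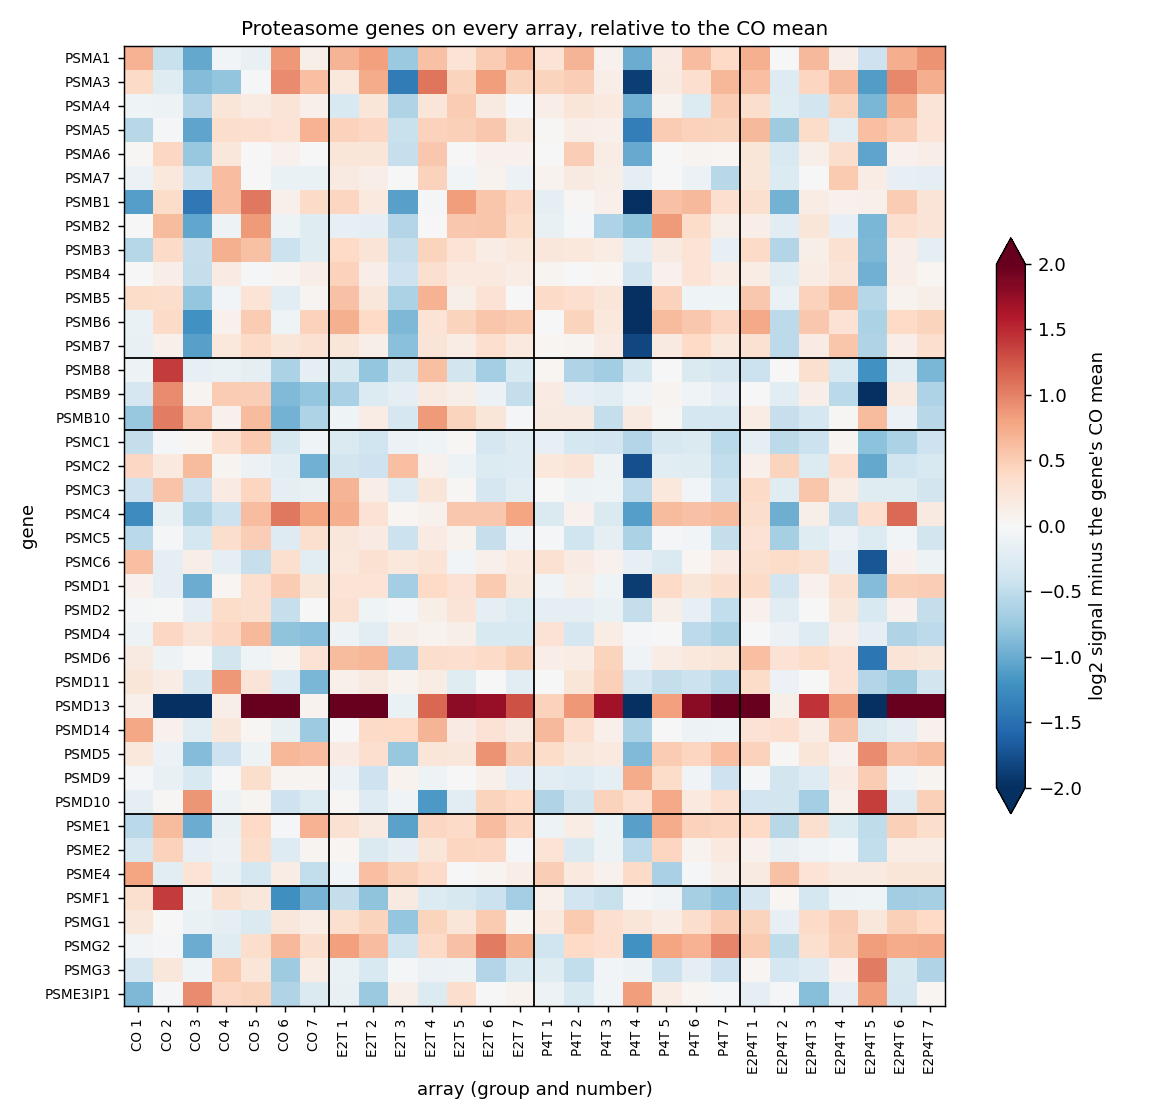
Log2 signal of each of the 40 genes (rows, grouped by class) on each of the 28 arrays (columns, grouped by treatment), minus the gene's mean in CO, with colours limited at -2 and 2. All 13 core genes lie below their CO mean on CO 3, E2T 3 and P4T 4, as do 12 of the 13 on E2P4T 2 and 10 on E2P4T 5. PSMB8, PSMB9, PSMB10 and PSMF1 are high on CO 2.

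Array numbers went with some genes in every group. In arrays numbered 5 to 7 compared with 1 to 4, 8 of the 40 genes were higher in all 4 groups and 7 were lower in all 4. The share of all probe sets with such agreement is not given here, so these counts have no baseline. PSMC4, PSMB1 and PSMF1 are examples from these genes. PSMC4 was higher by 1.44 in CO and by 0.34, 1.01 and 0.79 in the 3 treatments, and PSMB1 by 0.90, 0.72, 1.21 and 0.39. PSMF1, in contrast, had differences of -1.13, -0.14, -0.32 and -0.29. The labels do not say what the numbers stand for. Within arrays 1 to 4 the core medians were 0.18, -0.03 and 0.29, and within arrays 5 to 7 they were 0.08, 0.04 and -0.23. The immunoproteasome medians were -0.47, -0.36 and -0.39 within arrays 1 to 4 and 0.23, 0.13 and -0.44 within arrays 5 to 7, so that its direction in E2T and P4T did not hold within both sets.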

How the data were processed

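The authors isolated mRNA from liver biopsies, hybridized biotinylated cRNA to the Bovine GeneChip (Affymetrix), and deposited the signal intensity of each probe set from GCOS 1.4 and MAS 5.0, 1 column per array, on a linear scale and scaled by the software. Detection calls were not analysed here, and the study's mixed model with cow and period could not be fitted from the labels. Of 24128 probe sets, 112 controls were set aside and the 18775 with a signal of at least 350 on any array were tested, which all 40 proteasome genes passed. In R 4.3.3, limma 3.58.1 (lmFit and eBayes with a variance trend) was fitted to log2 signals of all 28 arrays with group as the only term, and p-values were adjusted by Benjamini-Hochberg with a threshold of 0.05. The scripts were tested on simulated data. Groups came from the labels. Arrays number 7 a group, which limits the precision, and as cows recur across groups, p-values measure the spread between arrays only.

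The members, lists and alternatives were chosen with earlier results of these data known. Named genes were PSMB5 to PSMB10, PSME1, PSME2 and PSME3IP1, members at an unadjusted p under 0.05, the members with the highest and the lowest difference in each class, those whose probe sets disagreed most, and list genes at an unadjusted p under 0.05. Marker lists covered hepatocytes, kidney, leukocytes, erythroid cells, stellate and endothelial cells, and muscle, skin and fat. Alternatives were median centring, quantile normalization, testing all probe sets or only those with a mean signal above the median, log2 of the signal plus 50, no variance moderation or trend, array weights, the replicate number as a block, only the groups compared, the mean over probe sets, and leaving out arrays singly or together. Correlations used exact permutation tests (scipy 1.17.1). Sequences were not analysed here, and genome positions were used only for the RefSeq gene order.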

Additional observations from a re-analysis of the deposited data

Results flagged for a closer look

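Each of the 19 named genes and 5 class measures was examined in the 4 groups for an array that lay far from the other arrays of its group (Dixon's test at the 95% level). Of 96 combinations 30 stood out. The combinations share arrays and genes, and some genes were named for extreme differences in these data. No chance rate or share of all probe sets is therefore set beside this count. P4T 4 accounted for 10 of the 30, E2T 3 for 9, CO 3 for 4, E2P4T 5 for 3, E2P4T 2 for 2, and CO 2 and E2T 4 for 1 each.

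Core genes made up 13 of the 30 and the core mean 3 more, all on the low side. On P4T 4 these were PSMA1 at 10.45, PSMB1 at 10.20, PSMB5 at 10.97, PSMB6 at 9.96 and PSMB7 at 11.59, with the core mean at 11.62. On E2T 3 they were PSMA1 at 10.70, PSMB3 at 11.59, PSMB6 at 11.55 and PSMB7 at 12.57, with the core mean at 12.26. CO 3 had PSMA4 at 11.53, PSMB6 at 11.24 and PSMB7 at 12.33, with the core mean at 12.05. On E2P4T 2, PSMB1 was at 11.89. All 4 arrays were among the 5 with the highest spike signals.

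The other classes had fewer. PSMB8 was high on CO 2, at 12.70, and on E2T 4, at 11.91, and these were the 2 arrays with the highest interferon list means. PSMB9 was low on E2P4T 5, at 7.46, as were PSMC6 at 10.15 and PSMD6 at 8.94. PSMD6 was also low on E2T 3, at 9.73, and PSMD13 on P4T 4, at 4.10. The regulatory mean was low on E2T 3, at 11.04, and on P4T 4, at 10.49. PSME1 on E2T 3, at 11.20, and the activator mean there, at 11.49, were low, whereas PSME4 was high on E2P4T 2, at 11.52. PSME3IP1 was high on P4T 4, at 10.07, next to 9.38 on the nearest array. The immunoproteasome mean minus the constitutive catalytic mean was -0.40 on P4T 4, where the nearest P4T array was at -2.47.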

How the results depend on the processing

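Over 46 alternatives the adjusted test called 0 of the 40 genes. Among the 19 named genes, in the comparisons with CO, the lowest adjusted p was 0.156. Of 2619 differences of named genes over these alternatives, 172 changed sign. The counts of genes at an unadjusted p under 0.05, which were 0, 1 and 1 in E2T, P4T and E2P4T, depended on the settings. Array weights gave 10, 6 and 7 (7, 3 and 5 higher). Median centring gave 0 in P4T and 0 in E2P4T, and raised the E2T medians to 0.397 over all 40 genes, 0.296 over the regulatory and 0.447 over the activator genes. Without variance moderation P4T and E2P4T had 2 each. E2P4T had 2 with the mean over probe sets and 2 with the spike level as a covariate, and E2T had 1 with only the groups compared. Leaving out P4T 4 and E2P4T 5 gave 2 in E2T and 3 in E2P4T, and leaving out CO 3 and E2T 3 as well gave 6, 2 and 3 (6, 1 and 2 higher). The shares of all probe sets called under array weights, without P4T 4 and E2P4T 5, and without these 4 arrays stand beside the same counts above. For the other settings of this paragraph such shares are not given, so their counts are not set against all probe sets. Without CO 2, P4T 4 and E2P4T 5 the activator median in E2P4T was 0.227. With the number set (1 to 4 or 5 to 7) as a term E2T had 1 and E2P4T 2. Arrays 1 to 4 alone gave 3 in E2T and 2 in E2P4T, and arrays 5 to 7 alone gave 0 in P4T and a regulatory median of -0.26 in E2P4T. Leaving out 1 array at a time gave 0 to 5 in E2T, 0 to 3 in P4T and 1 to 4 in E2P4T. The highest counts came without E2T 3 in E2T and without CO 6 in both others, and PSMC1 was not called in P4T without CO 4 or CO 5. The spike covariate, the number sets and the sets of 3 and 4 arrays left out were chosen after seeing the data. The causes of these changes were not tested.

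The labels number the arrays 1 to 7 in every group, but over 42 pairs of arrays with the same number the median correlation of their deviations was 0.0346 and the lowest -0.205, with 14 over 0.1. Over 252 pairs with different numbers the median was 0.00342, with 36 over 0.1, and 11 of the 28 arrays correlated best with an array of their own number. Since not every pair with the same number was over 0.1, the arrays were not treated as paired. The share over 0.1 was nevertheless larger among pairs with the same number, and whether some numbers mark the same cow was not tested. With the replicate number as a block 1, 1 and 2 genes had an unadjusted p under 0.05 and 0 passed the adjusted test. Cow and period could not be included, and PSMD13, under a signal of 350 on 20 arrays, and PSMD10, on 10, were measured near the floor.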

Other observations

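Marker lists of other cell types were measured on the same arrays, and 0 of their genes passed the adjusted test in any treatment. The 14 tested stellate and endothelial markers had median differences from CO of 0.27, 0.27 and 0.28 in the order E2T, P4T, E2P4T, and their list mean was highest on E2P4T 5, at 9.86. The 6 tested muscle, skin and fat markers had medians of -0.41, -0.48 and -0.65, and the 2 tested erythroid markers -0.09, -0.42 and -0.52. The 18 tested leukocyte markers had medians of 0.05, 0.18 and -0.23. The 20 hepatocyte markers had medians of -0.15, -0.17 and -1.01, and the 11 tested kidney markers -0.03, -0.25 and 0.67. When P4T 4 and E2P4T 5 were left out, the mean of the hepatocyte list was 15.16 in E2P4T (14.41 with all arrays) and 15.41 in CO, and that of the 13 kidney markers 6.29 in E2P4T (7.03 with all arrays) and 6.59 in CO. The leukocyte mean was then 9.64 in E2P4T (9.42 with all arrays) and 9.68 in CO. For stellate and endothelial markers it was 8.49 (8.69 with all arrays) and 8.44. The muscle, skin and fat mean moved away from CO, to 6.08 (6.32 with all arrays) against 6.95. So did the erythroid mean, to 5.22 (5.39 with all arrays) against 6.04.

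Of the genes with negative correlations to the core, PSME3IP1 had a median correlation of -0.511 with the 13 core genes over the 28 arrays, PSMD10 one of -0.358 and PSMF1 one of -0.222, and these were 0.162, -0.00587 and -0.0905 without P4T 4, E2P4T 5, CO 3 and E2T 3. These genes were chosen after their values were seen.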
